A study of Mus musculus with 13 samples.

Results

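The 10 genes described here carry glucose into the cell and break it down to lactate: the glucose transporter gene Slc2a1 and the enzyme genes Hk1, Hk2, Pfkl, Aldoa, Gapdh, Pgk1, Pgam1, Eno1 and Ldha. They were taken by name from a table of 43430 mouse genes. All 10 were found by their Ensembl IDs, and all 10 were among the 11906 genes that passed the filter on low counts. The RNA came from alveolar macrophages, which clear particles and microbes from the airspaces, after a sort of lung cells from 10-week-old male C57Bl/6 mice. Some mice drank metformin, a biguanide that lowers blood glucose, at 100 mg/kg/day for 24 h before an intratracheal instillation and on, and the others drank vehicle. The instillation held either 10 µg of an urban particulate matter standard (PM) or saline (PBS), and cells were taken 24 h after it. The groups were metformin with PM (n = 3), vehicle with PM (n = 3), metformin with PBS (n = 3) and vehicle with PBS (n = 4), 1 library for each of 13 mice, so all of them share the instillation procedure and the sort. The libraries keep the numbers of their titles, 1, 3 and 4 in both metformin groups, 1 to 3 for vehicle with PM and 1 to 4 for vehicle with PBS, and values per library are given in that order.

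Glycolysis splits glucose into pyruvate in the cytosol and yields a small amount of ATP without oxygen. Glucose enters through transporters of the Slc2a family, is trapped by hexokinases, is committed to breakdown by phosphofructokinase, and is then split, oxidised and rearranged by enzymes whose steps are mostly reversible. Lactate dehydrogenase turns pyruvate into lactate and regenerates the oxidised cofactor that the Gapdh step needs. Macrophages activated by bacterial products or by low oxygen are known for a rise in glucose uptake and glycolysis, and several of these genes are classical targets of hypoxia-inducible factors. Resident alveolar macrophages live in airspaces that are rich in oxygen and poor in glucose.

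The totals on genes were 6.51 to 8.10 megacounts per library with metformin and PM and 5.57 to 7.11 megacounts in the other groups. All 14 alveolar macrophage markers, among them Siglecf, Itgax, Marco and Car4, were detected in every group, with summed levels of 22945 to 28968 CPM across libraries. CPM (counts per megacount on genes, where a megacount is 1000000 counts) are scaled here by the trimmed mean of M values, and a gene is called where edgeR's quasi-likelihood test gave a Benjamini-Hochberg adjusted p under 0.05 over all 11906 genes. Log2 fold changes carry their standard error (SE), and levels their standard deviation (SD) over libraries.

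The levels spanned a wide range along the pathway. Levels between genes are compared per kilobase of the principal transcript, as CPM per kilobase averaged over 13 libraries. Aldoa, the aldolase that splits the six-carbon sugar, had 717 ± 32.4 CPM per kilobase (SD). Gapdh, which oxidises the triose phosphate, had 506 ± 25.8 CPM per kilobase, and Ldha, the muscle-type lactate dehydrogenase subunit, 305 ± 26.98. Eno1, the enolase of most tissues, had 159 ± 25.8 CPM per kilobase, Pgam1, the phosphoglycerate mutase of most tissues, 80.8 ± 13.2, and Pgk1, the first ATP-forming step, 44.7 ± 4.94. All 13 libraries put these 6 genes in this order, and the ranges of neighbours did not overlap. The genes of entry and commitment were lower and their ranges overlapped: Pfkl, the liver-type phosphofructokinase, had 11.5 ± 1.56 CPM per kilobase, Hk2 10.4 ± 0.777, Slc2a1 8.99 ± 2.37 and Hk1 7.03 ± 0.750. With the length of all exons merged in place of the principal transcript, Pgam1 stood above Eno1 (72.4 against 59.9 CPM per kilobase) and Pfkl fell behind Slc2a1 (6.40 against 8.35), so those neighbours cannot be ordered without knowing which transcripts are made.

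For some steps the listed gene was the main product, and for others it was not. Per kilobase, Ldha made up 99.96% of lactate dehydrogenase RNA and Ldhb 0.038%. Pgam1 was 98.3% of phosphoglycerate mutase RNA, Eno1 98.1% of enolase RNA and Aldoa 96.3% of aldolase RNA. Pfkl was only 15.4% of phosphofructokinase RNA, and the platelet-type gene Pfkp 83.8%. Hexokinase RNA was 48.4% Hk3, a hexokinase of myeloid cells, 30.9% Hk2 and 20.7% Hk1. Of the summed RNA of Slc2a1, Slc2a3, Slc2a6, Slc2a8 and Slc2a9, Slc2a8 made up 36.2%, Slc2a1 33.3%, Slc2a6 17.8% and Slc2a9 11.7% as means of 13 libraries. These genes are a chosen part of the Slc2a family and not forms of a single step. Slc2a8 is an intracellular hexose transporter, and Slc2a12, which passed the filter, was left out. The shares therefore do not rank the genes by their part in glucose entry. The share of Slc2a1 was 39.3% ± 1.66 with metformin and PM and 39.2% ± 2.60 with vehicle and PM, against 28.1% ± 1.65 with metformin and PBS and 28.4% ± 1.21 with vehicle and PBS. Every PM library stood above every PBS library in this share. That of Slc2a8 was 36.5% ± 3.27 with metformin and PM and 32.2% ± 3.32 with vehicle and PM, against 36.3% ± 1.56 with metformin and PBS and 38.96% ± 3.87 with vehicle and PBS, so by this length the mean of Slc2a1 was above that of Slc2a8 in both PM groups and below it in both PBS groups. All these shares, and the order of genes within a step, depend on the principal transcript lengths and on how reads shared with copies were counted. They were not recomputed with merged exons.

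**Figure D1:**
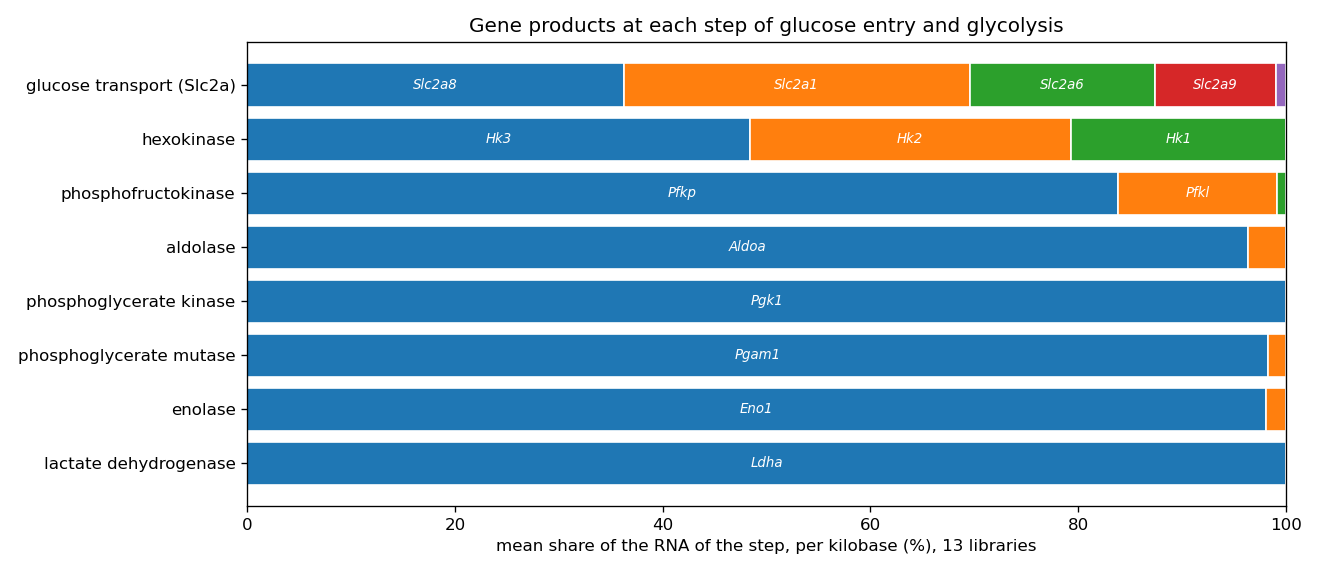
Share of each step's RNA held by each gene, per kilobase of principal transcript, as the mean of 13 libraries; genes above 4% are named on the bars. Ldha, Pgam1, Eno1 and Aldoa fill over 96% of their steps, and Pfkl (15.4%), Hk1 (20.7%) and Hk2 (30.9%) share theirs with other genes. The bar of glucose transport is a chosen part of the Slc2a family, with the intracellular Slc2a8, and Slc2a1 is 33.3% of it.

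Slc2a1 (ENSMUSG00000028645, chr4:119108711-119137330, plus strand, mm10) encodes GLUT1, the basal glucose transporter of many cells. It had 33.8, 35.9 and 35.2 CPM with metformin and PM. With vehicle and PM it had 37.9, 43.8 and 32.03 CPM. The PBS libraries had 24.7, 19.4 and 18.5 CPM with metformin, and 26.3, 21.6, 26.3 and 25.4 CPM with vehicle. All 6 PM libraries lay above all 7 PBS libraries.

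With vehicle water, Slc2a1 was higher after PM by 0.61 ± 0.11 on the log2 scale (SE), a 1.53-fold level with a 95% interval of 0.38 to 0.84 in log2 and an adjusted p of 0.001845 in edgeR's quasi-likelihood test. With metformin water it was higher after PM by 0.75 ± 0.12 (1.68-fold, adjusted p = 0.000409 by the same test). These are relative levels of a sorted population, in which a larger share of cells of one type and more RNA per cell cannot be told apart. A gene on the opposite strand, Gm12868, overlaps Slc2a1 by 3582 bases, and the kit keeps no strand. Its 142 counts over all libraries compare with 2531 for Slc2a1.

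Of the 10 genes, 3 were called higher after PM with vehicle water and 0 lower, beside 4.85% of all genes tested called in that comparison in either direction and 2.6% called higher. With metformin water 5 of the 10 were called higher and 0 lower, beside 12.8% of all genes in either direction and 7.18% higher. The called genes with vehicle were Slc2a1, Pgam1 and Eno1, and with metformin the same 3 genes together with Pgk1 and Ldha. The median log2 fold change of the 10 genes was 0.15 with vehicle and 0.20 with metformin, against medians of all genes tested of -0.00134 and 0.0048. All PM libraries lay above all PBS libraries for 5 of the 10 genes with vehicle (7.33% of all genes) and for 6 with metformin (16.1% of all genes). Leaving out vehicle PM library 2 brought the vehicle median to 0.0901, and the same number of genes, 3, was called.

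Markers of alveolar macrophages and of other cells moved in the same comparisons. Of the 14 alveolar macrophage markers, 3 were higher and 5 lower after PM with vehicle, and 6 higher and 3 lower with metformin. Car4 was higher by 1.02 with metformin and 1.11 with vehicle in log2, Marco by 1.44 and 0.62, while Ear1 had -0.47 and -0.56 and Siglecf -0.22 and -0.20. Their summed level is mostly that of Chil3, with 13345 to 19048 CPM in each library. The 15 monocyte and monocyte-derived macrophage markers summed to 2110 to 2540 CPM with metformin and PM and 2138 to 3012 CPM with vehicle and PM, against 1801 to 2484 CPM with metformin and PBS and 1439 to 1808 CPM with vehicle and PBS. This sum is mostly that of Fn1, with 8683 to 17880 raw counts in each library, against 243 to 732 for Apoe. With vehicle, 4 of the 8 tested markers of this list were higher after PM, Itgam by 1.36, Mmp12 by 1.64, Mmp14 by 4.71 and Fn1 by 0.69 in log2. Of the 8, 5 had positive and 3 negative values with vehicle (lowest -0.37), and 6 and 2 with metformin. Ccr2 had 36, 49 and 55 raw counts with vehicle and PM, against 62, 56, 48 and 38 with vehicle and PBS. Its raw counts with metformin were 41, 33 and 25 after PM and 36, 62 and 41 after PBS. Ly6c2 had 0 to 2 raw counts per library. With metformin, Itgam, Mmp12 and Mmp14 were higher by 1.67, 2.39 and 4.42, and Apoe was lower by 1.10 (log2 fold change -1.10). Of 11 lymphocyte markers the immunoglobulin genes Igkc and Jchain were higher after PM, by 2.53 and 2.70 with vehicle and by 2.94 and 3.88 with metformin, while Cd2 was lower with metformin (-0.20). The list summed to 267 to 294 CPM with metformin and PM and 274 to 281 CPM with vehicle and PM, against 303 to 328 CPM with metformin and PBS and 299 to 316 CPM with vehicle and PBS. Among its markers, Cd3e, Cd3d, Cd79b and Ncr1 were at 0 in some groups, Ncr1 in all 4. The 11 neutrophil markers summed to at most 82.7 CPM in any library, and Camp, Ly6g and Retnlg were at 0 in every library; Mmp8 was called after PM with metformin (log2 fold change 0.43, adjusted p = 0.04979, edgeR quasi-likelihood). The part of these cells in the results on glycolysis genes was not tested.

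**Figure D2:**
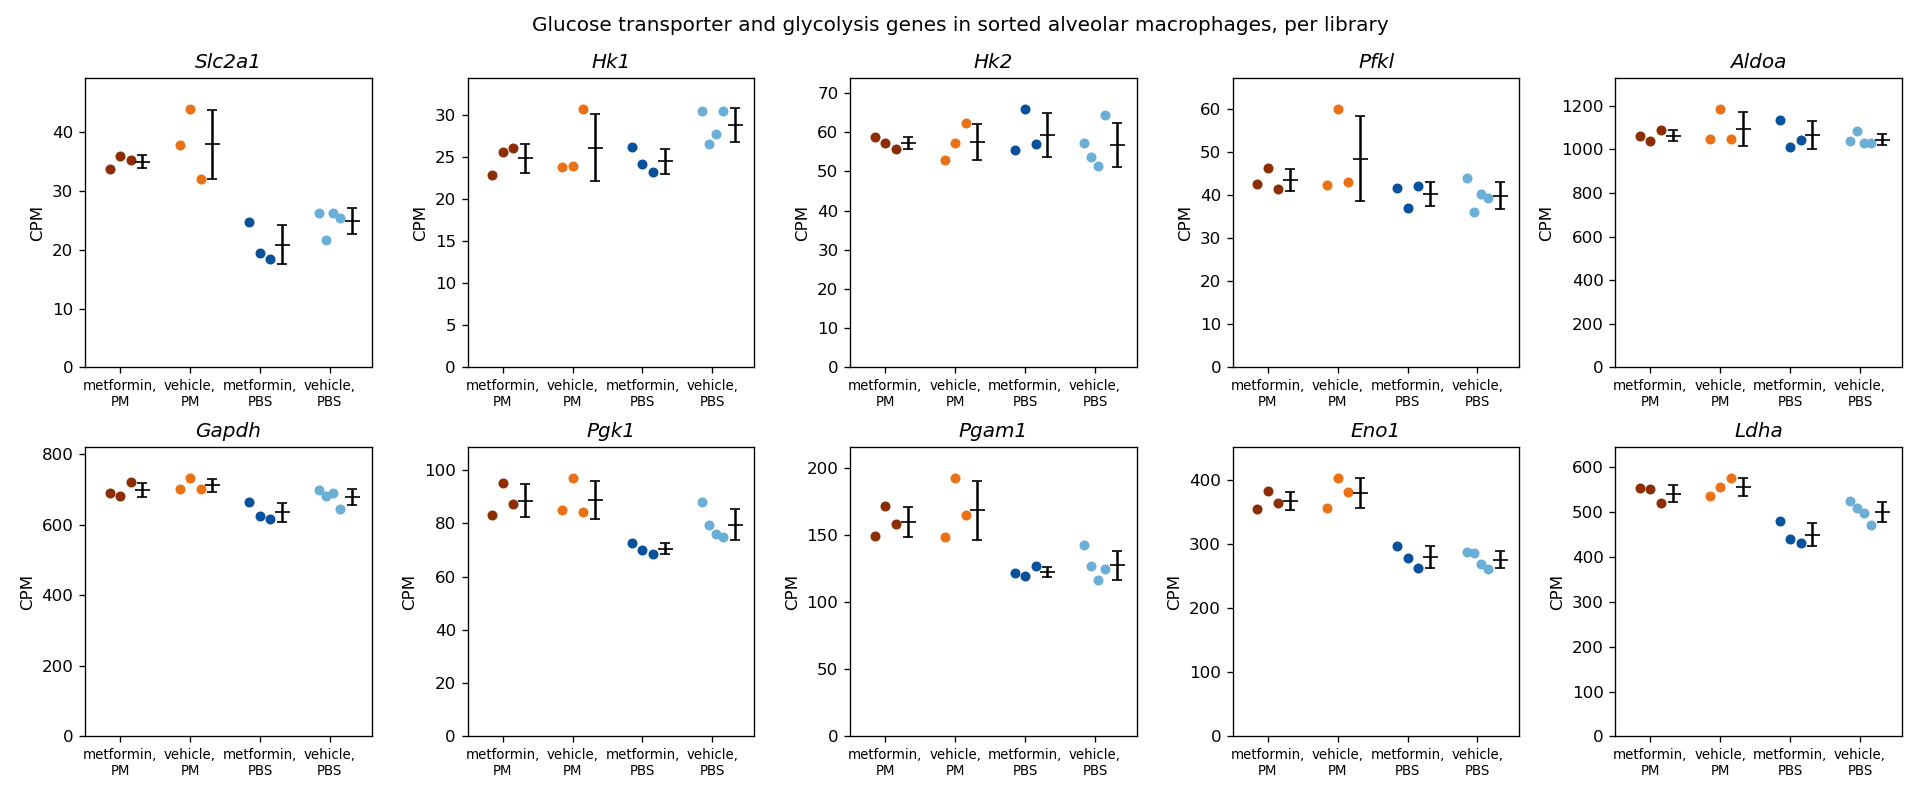
Normalised CPM of the 10 genes in each library, with metformin and PM, vehicle and PM, metformin and PBS, and vehicle and PBS from left to right; points are libraries and black bars the mean ± SD. For Slc2a1, Pgam1 and Eno1 all 6 PM libraries lie above all 7 PBS libraries, and Hk2 has means of 56.6 to 59.3 CPM in all 4 groups.

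To show what lies before these genes, the 250 bases upstream of a RefSeq transcript start (GRCm38.p6) are printed for the 5 genes called after PM and, for contrast, for Hk2, which was not called. Each runs 5′ to 3′ on the strand of the gene, and capitals mark ACGTG and GCGTG, the cores bound by hypoxia-inducible factors, or their reverse complements CACGT and CACGC.
Slc2a1, chr4:119108495-119108744, plus strand: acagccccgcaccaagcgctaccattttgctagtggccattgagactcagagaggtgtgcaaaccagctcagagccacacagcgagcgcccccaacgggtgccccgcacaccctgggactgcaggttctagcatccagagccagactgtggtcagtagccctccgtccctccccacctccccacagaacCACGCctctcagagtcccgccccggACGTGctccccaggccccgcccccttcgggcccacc
Pgk1, chrX:106186850-106187099, plus strand: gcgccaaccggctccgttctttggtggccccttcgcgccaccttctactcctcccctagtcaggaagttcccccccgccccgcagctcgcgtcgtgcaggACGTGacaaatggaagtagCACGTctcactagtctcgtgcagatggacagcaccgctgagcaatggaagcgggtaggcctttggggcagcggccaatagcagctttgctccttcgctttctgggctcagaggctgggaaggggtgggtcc
Pgam1, chr19:41911621-41911870, plus strand: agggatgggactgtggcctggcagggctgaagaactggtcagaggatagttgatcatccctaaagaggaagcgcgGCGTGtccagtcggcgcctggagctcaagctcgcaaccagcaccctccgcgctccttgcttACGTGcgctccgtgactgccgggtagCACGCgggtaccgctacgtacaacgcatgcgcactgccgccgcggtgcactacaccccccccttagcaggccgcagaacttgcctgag
Eno1, chr4:150236458-150236707, plus strand: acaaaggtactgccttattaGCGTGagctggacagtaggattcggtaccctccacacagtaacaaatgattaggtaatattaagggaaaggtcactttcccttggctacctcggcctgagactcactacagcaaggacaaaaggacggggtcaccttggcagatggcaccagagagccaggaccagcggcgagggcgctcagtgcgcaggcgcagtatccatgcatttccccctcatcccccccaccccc
Ldha, chr7:46845554-46845803, plus strand: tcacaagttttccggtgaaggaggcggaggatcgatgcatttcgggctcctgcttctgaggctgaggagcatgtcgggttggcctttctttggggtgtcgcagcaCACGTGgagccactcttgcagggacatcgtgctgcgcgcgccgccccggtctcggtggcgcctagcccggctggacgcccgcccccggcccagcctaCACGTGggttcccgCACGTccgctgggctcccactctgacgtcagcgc
Hk2, chr6:82774455-82774704, minus strand: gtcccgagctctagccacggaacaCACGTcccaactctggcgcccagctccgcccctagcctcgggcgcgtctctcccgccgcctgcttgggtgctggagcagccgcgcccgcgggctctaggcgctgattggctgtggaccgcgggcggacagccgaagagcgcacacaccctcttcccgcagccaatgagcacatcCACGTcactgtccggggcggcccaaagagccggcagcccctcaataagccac

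Slc2a1 held ACGTG 36 bases and, on the other strand, GCGTG 61 bases before the start. Pgam1 held 1 ACGTG and 2 GCGTG, Pgk1 2 ACGTG, 1 on each strand, and Eno1 a single GCGTG 230 bases before the start. Ldha held 5 matches to ACGTG, of which 4 come from 2 copies of the palindrome CACGTG read on both strands. Hk2, not called in any comparison, held 2 matches to ACGTG. Over the windows of all 10 genes, 5 had ACGTG, 5 had GCGTG and 8 had either one, and Hk1 and Aldoa had neither. Of 32851 RefSeq windows of the same length, 16.6% had ACGTG, 28.2% GCGTG and 38.6% either. Both motifs hold a CpG, and among the 9178 windows with at least 60% G or C the share with either was 63.8%; the median of the 10 windows was 61.0% G or C and that of all windows 52.4%. A match describes the letters in the window and is not evidence of binding. Where RefSeq lists several starts the one nearest to the deposited gene start was taken, and for Ldha that start lies 4329 bases inside the deposited gene.

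Hexokinases trap glucose in the cell as glucose 6-phosphate. Hk1 (chr10:62268855-62379908, minus strand), the widely expressed form, had 22.96, 25.6 and 26.1 CPM with metformin and PM, 23.9, 23.9 and 30.7 with vehicle and PM, 26.2, 24.2 and 23.3 with metformin and PBS, and 30.5, 26.6, 27.7 and 30.5 with vehicle and PBS. Its libraries overlapped between PM and PBS in both drinking-water arms, with log2 fold changes of 0.02 with metformin and -0.14 with vehicle. Hk2 (chr6:82725025-82774454, minus strand), the insulin- and hypoxia-responsive form, had 58.7, 57.2 and 55.7 CPM with metformin and PM and 53.0, 57.2 and 62.3 with vehicle and PM. In the PBS groups it had 55.3, 65.8 and 56.8 CPM with metformin and 57.1, 53.7, 51.3 and 64.3 with vehicle. Its PM effect had a 95% interval of -0.23 to 0.13 in log2 with metformin and -0.15 to 0.20 with vehicle. Neither interval reached the size of the change in Slc2a1.

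Pfkl (chr10:77986947-78010083, minus strand), a phosphofructokinase subunit at the committed step, had 42.6, 46.2 and 41.4 CPM with metformin and PM, and 42.4, 59.9 and 43.1 CPM with vehicle and PM. It had 41.6, 37.0 and 42.0 CPM with metformin and PBS, and 43.8, 36.03, 40.3 and 39.3 CPM with vehicle and PBS. A single library, vehicle PM 2, stood above the rest. Its PM effect with vehicle was 0.28 ± 0.11 (log2, adjusted p = 0.1658 in edgeR's quasi-likelihood test). Without vehicle PM library 2 that value was 0.0948, and without a filter on low counts it was 0.29 with an adjusted p of 0.0381. The fit without a filter called many more genes, 404 higher and 409 lower for metformin with PBS against 135 and 230.

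Aldoa (chr7:126795234-126800751, minus strand) had 1061, 1038 and 1091 CPM with metformin and PM, 1049, 1183 and 1049.8 CPM with vehicle and PM, 1135, 1012 and 1044 CPM with metformin and PBS, and 1039, 1082, 1029 and 1028 CPM with vehicle and PBS. Its counts ran from 5757 to 8546 per library, and its PM effect had the narrow 95% intervals of -0.12 to 0.12 in log2 with metformin and -0.04 to 0.18 with vehicle. Further on, Gapdh (chr6:125161715-125166467, minus strand) had 691, 683 and 721 CPM with metformin and PM and 702, 731 and 701 CPM with vehicle and PM. It had 665, 625 and 615 CPM with metformin and PBS and 699, 682, 689.8 and 645 CPM with vehicle and PBS. In both drinking-water arms all Gapdh libraries of the PM group lay above those of the PBS group, but the log2 fold changes were small, 0.14 ± 0.05 with metformin (adjusted p = 0.08121, edgeR quasi-likelihood) and 0.07 ± 0.05 with vehicle (adjusted p = 0.5309). Gapdh shares a stretch of at least 75 bases at 97% identity or more with 108 other genes, 102 of them pseudogenes, so part of its reads may have been counted elsewhere or dropped.

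Pgk1 (chrX:106187100-106203699, plus strand), phosphoglycerate kinase, had 83.2, 95.2 and 87.1 CPM with metformin and PM and 85.2, 96.9 and 84.2 CPM with vehicle and PM. It had 72.7, 70.1 and 68.5 CPM with metformin and PBS, and 88.0, 79.3, 75.9 and 75.0 CPM with vehicle and PBS. The metformin libraries did not overlap between PM and PBS, and the vehicle libraries did, because vehicle PBS library 1 lay within the PM range. Pgk1 was higher after PM by 0.33 ± 0.08 with metformin (log2, adjusted p = 0.006431, edgeR quasi-likelihood), and the value with vehicle was 0.16 ± 0.07 (adjusted p = 0.2597). Without metformin PM library 3 the metformin value was 0.26 with an adjusted p of 0.06196.

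Pgam1 (chr19:41911871-41918664, plus strand), which moves the phosphate of 3-phosphoglycerate, had 149.6, 172 and 158 CPM with metformin and PM and 149, 192 and 165 CPM with vehicle and PM. With metformin and PBS it had 122, 119.8 and 127 CPM, and with vehicle and PBS 142, 127, 117 and 125 CPM. The lowest PM library stood above the highest PBS library in both arms. Pgam1 was higher after PM by 0.38 ± 0.08 with metformin (log2, 1.30-fold, adjusted p = 0.00529, edgeR quasi-likelihood) and by 0.40 ± 0.08 with vehicle (1.32-fold, adjusted p = 0.003931).

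Eno1 (chr4:150236721-150248879, plus strand), the enolase that forms phosphoenolpyruvate, had 355, 383 and 364 CPM with metformin and PM and 356, 403 and 382 CPM with vehicle and PM. With metformin and PBS it had 297, 278 and 263 CPM, and with vehicle and PBS 288, 286, 269 and 262 CPM. These groups stood well apart, with 2341 to 3008 raw counts in each PM library. The log2 rise after PM was 0.39 ± 0.06 with metformin (1.31-fold, adjusted p = 0.000233, edgeR quasi-likelihood) and 0.46 ± 0.06 with vehicle (1.38-fold, adjusted p = 3.71e-05). Among the 11906 genes ordered by p, Eno1 ranked 165 with metformin and 42 with vehicle.

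Ldha (chr7:46841475-46855627, plus strand), which reduces pyruvate to lactate, had 553, 551 and 519 CPM with metformin and PM and 536, 555 and 575 CPM with vehicle and PM. In the PBS groups it had 479.6, 439 and 431 CPM with metformin and 525, 508, 497 and 472 CPM with vehicle. All PM libraries lay above the PBS libraries of the same water, by a wide gap with metformin and a narrow one with vehicle. The rise with metformin was 0.27 ± 0.06 in log2 (1.203-fold, adjusted p = 0.003234, edgeR quasi-likelihood). The value with vehicle was 0.15 ± 0.05 with an adjusted p of 0.1223. Ldha shares stretches of at least 75 bases with 8 other genes, 6 of them pseudogenes.

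**Figure D3:**
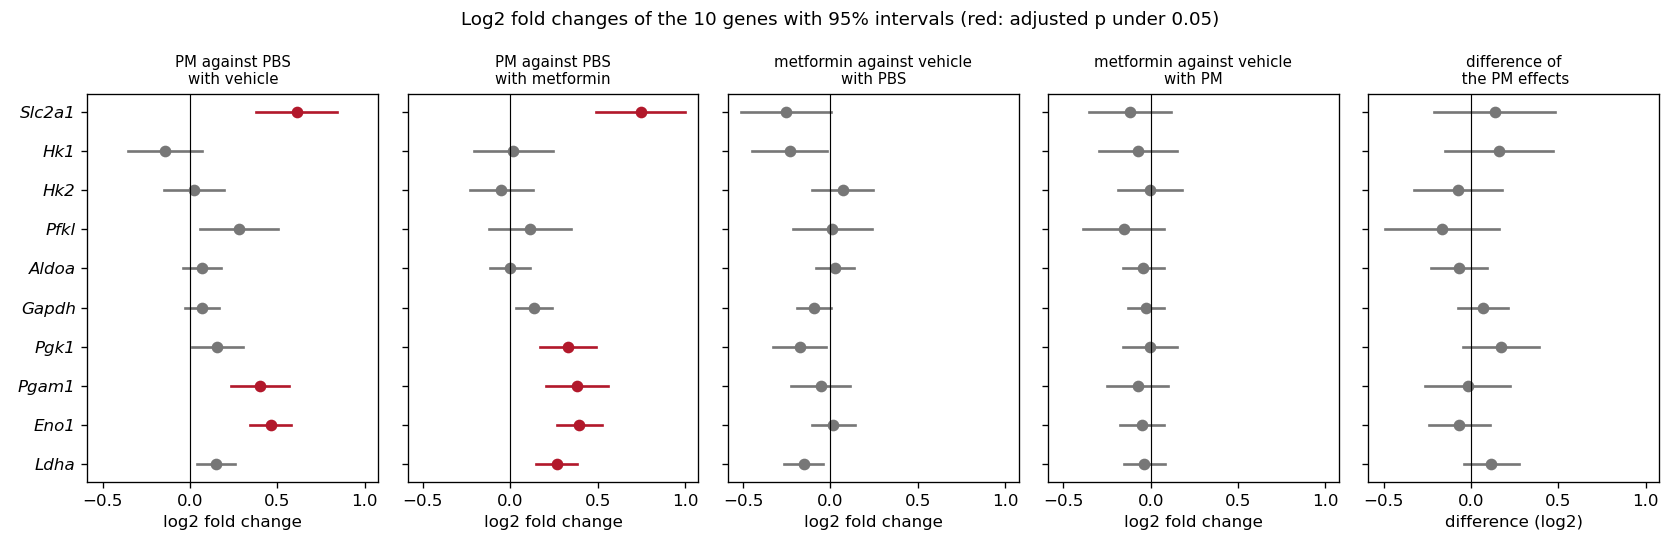
Log2 fold changes of the 10 genes in the 4 comparisons and the difference of the PM effects, with 95% intervals from the edgeR fit; red marks adjusted p under 0.05. Slc2a1, Pgam1 and Eno1 are red in both PM panels, Pgk1 and Ldha only in the one with metformin, and no gene is red for metformin against vehicle or for the difference.

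That Pgk1 and Ldha passed the threshold with metformin alone does not show that the drug changed their response to PM. The difference of the PM effects, metformin minus vehicle, was 0.17 in log2 for Pgk1 (95% interval -0.04 to 0.39) and 0.12 for Ldha (-0.04 to 0.28). For Slc2a1 it was 0.14 (-0.21 to 0.48), for Pgam1 -0.02 (-0.26 to 0.22) and for Eno1 -0.07 (-0.24 to 0.11). Of the 10 genes 0 were called for this difference by edgeR, beside 1.44% of all genes, and DESeq2 also called 0. At an unadjusted p under 0.05 by edgeR there were 0 of the 10, beside 749 higher and 631 lower of all 11906 genes tested. The differences were positive for 5 genes and negative for 5. For Slc2a1 the interval still holds a difference as large as several of the PM effects themselves.

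Metformin against vehicle gave no called gene among the 10. With PBS, edgeR called 0 of the 10, beside 3.07% of all genes tested, and DESeq2 called 0 too. At an unadjusted p under 0.05 by edgeR there were 3, all lower with metformin, beside 993 higher and 1132 lower of all 11906 genes tested. The 3 were Ldha (-0.15 ± 0.05, adjusted p = 0.1214), Pgk1 (-0.18 ± 0.07, adjusted p = 0.2032) and Hk1 (-0.23 ± 0.10, adjusted p = 0.2367). For Hk1 and Pgk1 every metformin PBS library lay below every vehicle PBS library, as for 7.54% of all genes. Slc2a1 averaged 20.9 ± 3.36 CPM with metformin and PBS and 24.9 ± 2.22 CPM with vehicle and PBS (SD, n = 3 and 4), a log2 fold change of -0.26 with an interval of -0.51 to 0.00109. The metformin PBS libraries are the baseline of the PM effect with metformin, and the vehicle PBS libraries that of the PM effect with vehicle, so these values and the PM effects share samples. Among the cell markers, Marco (-1.11), Cdh1 (-0.44) and Mmp8 (-0.67) were lower and Apoe (1.07) higher with metformin and PBS in log2, and their part in these values was not tested. For Pgk1 the PM groups averaged 88.5 CPM with metformin and 88.8 CPM with vehicle, against 70.4 CPM with metformin and 79.5 CPM with vehicle in the PBS groups.

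With PM, metformin against vehicle gave 0 called genes of 10 in edgeR, beside 6.89% of all genes, and 0 in DESeq2. At an unadjusted p under 0.05 by edgeR there were 0, beside 1281 higher and 1136 lower of all 11906 genes tested. All 10 log2 fold changes were negative, from -0.15 for Pfkl to -0.00357 for Hk2, with a median of -0.05, against -0.00396 for all genes. Leaving out vehicle PM library 2 made those of Pfkl, Aldoa, Pgk1 and Pgam1 positive (0.0234, 0.0168, 0.0618 and 0.0290). The intervals were -0.18 to 0.08 for Eno1, -0.25 to 0.10 for Pgam1 and -0.35 to 0.11 for Slc2a1. Endothelial and stromal markers differed in this comparison: the 6 summed to 24.7 to 43.6 CPM with metformin and PM and 8.62 to 24.5 CPM with vehicle and PM, and Pecam1, Col1a1 and Col1a2 were higher with metformin by 0.96, 1.80 and 1.17 in log2. Against metformin with PBS, where the sum was 10.2 to 15.9 CPM, Cldn5 was called too, the surfactant genes Sftpc, Sftpb and Sftpa1 were higher by 1.23, 1.26 and 1.51, and Epcam, another epithelial marker, was lower (-0.42). Of the alveolar macrophage markers, Plet1 (0.28) and Car4 (-0.32) were called for metformin against vehicle with PM. The 8 epithelial markers summed to 251 to 287 CPM with metformin and PM and 223 to 262 CPM with vehicle and PM, against 234 to 284 CPM with metformin and PBS and 229 to 275 CPM with vehicle and PBS. Their part in the glycolysis values was not tested.

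The 10 genes did not move as 1 unit across libraries. Averaged over the genes, with each gene's log2 CPM standardised over the 13 libraries, vehicle PM library 2 was highest at 1.33 SD and metformin PBS library 4 lowest at -1.06 SD. The other PM libraries had 0.21, 0.55 and 0.43 SD with metformin and 0.14 and 0.72 SD with vehicle. In the PBS groups the values were -0.32 and -0.90 SD for the other metformin libraries and 0.18, -0.42, -0.53 and -0.34 SD for the vehicle libraries. Vehicle PM library 1 stood below vehicle PBS library 1, so on this mean the PM and PBS libraries overlapped with vehicle, and with metformin they did not. Pgam1 followed the mean profile most closely, with a root mean square difference of 0.35 SD, followed by Pgk1 (0.38) and Slc2a1 (0.41). Hk1 (1.29) and Hk2 (1.38) departed most. Outside the listed pathways, the 5 nearest to the mean profile were Npm1 (0.218), Pmvk (0.305), Rps18 (0.307), Atp6v1a (0.307) and Mrpl52 (0.309), by the same measure over the same 13 libraries. Predicted genes (Gm and Rik names) and genes without a symbol were left out of this ranking. These 5 were picked as the smallest values among all other tested genes, so their values cannot be set against those of the members. Each member is itself part of the mean profile.

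**Figure D4:**
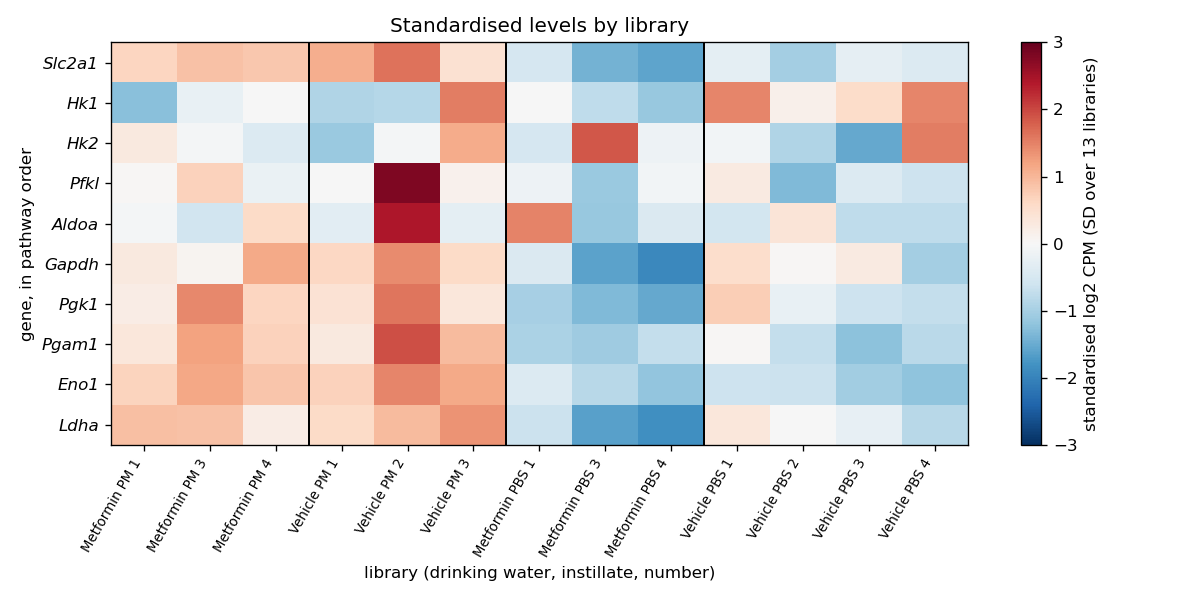
Log2 CPM of the 10 genes, standardised per gene over the 13 libraries, with the groups metformin and PM, vehicle and PM, metformin and PBS, and vehicle and PBS from left to right. Slc2a1, Gapdh, Pgk1, Pgam1, Eno1 and Ldha are above 0 in every PM library, vehicle PM library 2 is highest for Pfkl and Aldoa, and Hk1 and Hk2 follow no such pattern.

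Of 17 further glycolysis genes 8 passed the filter, and 0 were called by edgeR in any of the 5 comparisons. At an unadjusted p under 0.05 there was 1 higher after PM with vehicle, 2 were lower with metformin in each instillate, and the other comparisons had 0. Of all 11906 genes tested, 966 were higher by that rule after PM with vehicle. Lower with metformin were 1132 with PBS and 1136 with PM. Pkm, the pyruvate kinase of most tissues, averaged 910.1 ± 7.59 CPM with metformin and PM and 965 ± 47.8 CPM with vehicle and PM, against 868 ± 46.0 CPM with metformin and PBS and 930.5 ± 34.9 CPM with vehicle and PBS. Its PM effect was 0.07 ± 0.05 with metformin and 0.05 ± 0.05 with vehicle in log2. Gpi1, the glucose 6-phosphate isomerase, had PM effects of -0.000203 and 0.00249 in log2 with metformin and vehicle. Pfkp, the main phosphofructokinase here, had -0.02 and 0.08, and Tpi1, the triose phosphate isomerase, 0.03 and -0.03. Aldoc, the brain-type aldolase, had 0.35 ± 0.10 with vehicle and missed the threshold by edgeR (adjusted p = 0.05127). DESeq2 called it at 0.36 with an adjusted p of 0.03598, and so did the fit without a filter (adjusted p = 0.0002452). The edgeR fit without a filter gave far smaller adjusted p for some genes. For Hmox1 after PM with vehicle it gave 9.423e-93, against 0.002243 by DESeq2. Of 13 fits that left out a library, 4 called 1 gene of these 8 higher after PM with vehicle.

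**Figure D5:**
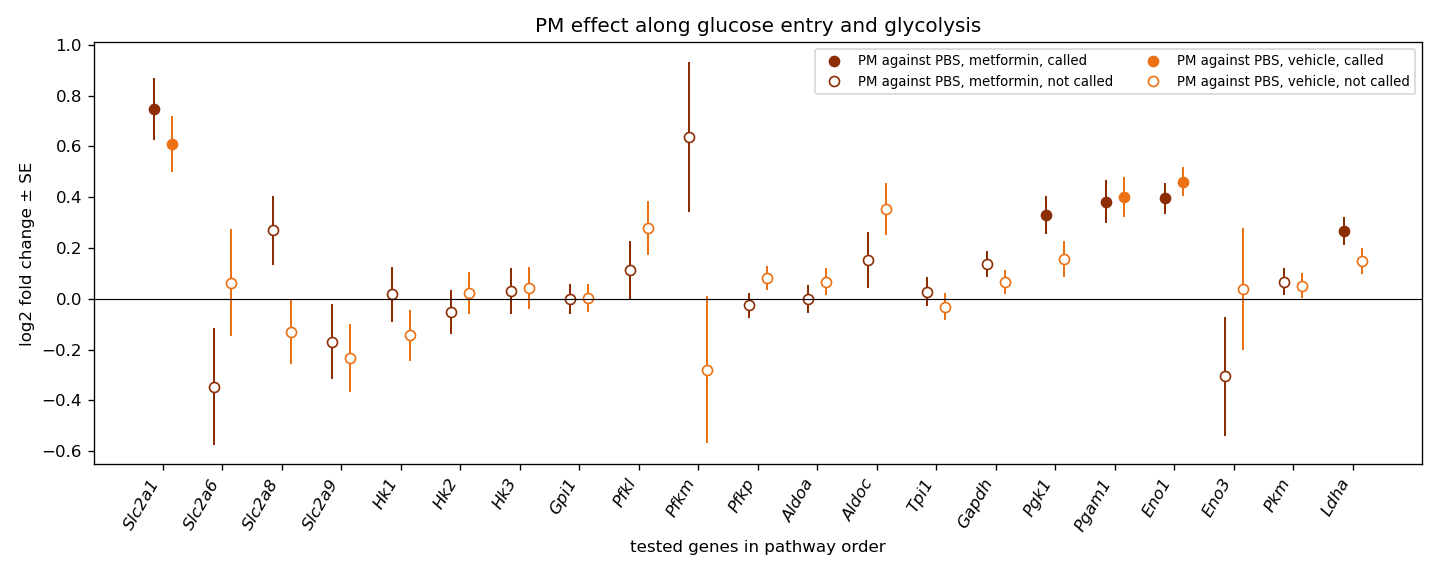
PM effect (log2 fold change ± SE) for 21 tested genes of glucose entry and glycolysis in pathway order (Slc2a12 and Slc5a2, tested and not called, are not drawn), with metformin to the left and vehicle to the right at each gene; filled points are called at an adjusted p under 0.05. Filled points sit at Slc2a1 and at the lower steps Pgk1, Pgam1, Eno1 and Ldha, and the genes from Slc2a6 to Gapdh, Eno3 and Pkm are open.

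Of 14 other glucose and lactate transporter genes 9 were tested. Neither edgeR nor DESeq2 called any of them in any comparison, beside 1.44% to 12.8% of all genes by edgeR. At an unadjusted p under 0.05, metformin with PM had 2 lower and metformin with PBS 1 lower, the 2 PM comparisons had 0, and the difference had 1 higher and 1 lower. Of all 11906 genes tested, 1136 were lower by that rule with metformin and PM and 1132 with metformin and PBS. The difference had 749 higher and 631 lower. The lactate exporters Slc16a1 and Slc16a3 had PM effects of -0.12 ± 0.14 and -0.13 ± 0.10 with metformin and of 0.16 ± 0.13 and -0.10 ± 0.09 with vehicle in log2. Their chaperone Bsg had 0.12 ± 0.06 with metformin and 0.03 ± 0.05 with vehicle. Slc2a8, an intracellular hexose transporter, had 0.27 ± 0.14 with metformin and -0.13 ± 0.13 with vehicle.

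Of 29 regulators of glycolysis and of pyruvate use 26 were tested. With vehicle, 1 of the 26 was higher after PM and 2 were lower, beside 4.85% of all genes called in either direction. Myc, a transcription factor that drives many glycolysis genes in other cells, was higher by 0.82 ± 0.15 (adjusted p = 0.002044 by edgeR's quasi-likelihood test), at 53.5 ± 9.95 CPM with vehicle and PM against 30.5 ± 7.24 CPM with vehicle and PBS (SD, n = 3 and 4). Pdk4, the kinase that shuts pyruvate dehydrogenase, fell to 30.4 ± 6.10 CPM with vehicle and PM, against 58.9 ± 12.3 CPM with vehicle and PBS (log2 fold change -0.95 ± 0.17, adjusted p = 0.001665). Neither Myc nor Pdk4 was called after PM with metformin. Without a filter on low counts both were called there, in the same directions, at 0.34 and -0.43 in log2. Mpc2, a subunit of the mitochondrial pyruvate carrier, was lower by 0.27 (log2 fold change -0.27, adjusted p = 0.0252, edgeR quasi-likelihood). Without vehicle PM library 2 or 3, or vehicle PBS library 2 or 3, its values were -0.26, -0.25, -0.23 and -0.26 with adjusted p of 0.09949, 0.1108, 0.09532 and 0.05661.

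With metformin, 2 of the 26 regulators were higher after PM and 3 lower, beside 12.8% of all genes called in either direction. Txnip, a thioredoxin-binding arrestin that limits glucose uptake and is itself induced by glucose, was lower by edgeR's quasi-likelihood test (-0.53 ± 0.08, adjusted p = 0.0002568), at 478 ± 51.7 CPM with metformin and PM against 693 ± 1.83 CPM with metformin and PBS. With vehicle its value was -0.27 ± 0.08 with an adjusted p of 0.05084, and DESeq2 called it there (adjusted p = 0.0281). Arrdc4, the arrestin closest to Txnip, was lower with metformin (-0.23 ± 0.07, adjusted p = 0.03138), as was Pfkfb4, which sets the level of fructose 2,6-bisphosphate (-0.35 ± 0.07, adjusted p = 0.004148). Tigar, which lowers that metabolite, was higher (0.37 ± 0.09, adjusted p = 0.006614), and so was Mlxip, a glucose-sensing transcription factor (0.28 ± 0.09, adjusted p = 0.04359). Tigar was not called with vehicle, where its raw counts were 322, 295 and 291 after PM and 286, 221, 250 and 225 after PBS. The call of Arrdc4 was lost in 4 of 13 fits that left out a library (metformin PM 3 or 4, metformin PBS 3 or 4), with adjusted p of 0.0627 to 0.106 and values of -0.25 to -0.21. That of Mlxip was lost in 7 (metformin PM 1, 3 or 4, vehicle PM 3, metformin PBS 1 or 3, vehicle PBS 2), with adjusted p of 0.05172 to 0.1906 and values of 0.18 to 0.31, and was also lost under DESeq2 (adjusted p = 0.05454) and with library totals alone (adjusted p = 0.07288). Hif1a, the oxygen-regulated subunit of hypoxia-inducible factor 1, had PM effects of 0.08 ± 0.07 with metformin and 0.12 ± 0.06 with vehicle and was not called.

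Between the drinking-water arms after PM, Pfkfb3 and Pdp1 were called higher with metformin and Pfkfb4 lower, 3 of the 26 regulators beside 6.89% of all genes. Pfkfb3, of the same enzyme family as Pfkfb4, averaged 60.4 ± 10.2 CPM with metformin and PM and 45.4 ± 4.11 CPM with vehicle and PM (log2 fold change 0.42 ± 0.12, adjusted p = 0.04263, edgeR quasi-likelihood). Its call was lost in 6 of 13 fits that left out a library, any of the 3 of vehicle with PM, metformin PM 1 or 4 or metformin PBS 4; the lowest value was 0.26 with an adjusted p of 0.2659, without metformin PM library 1. Pdp1, the phosphatase that reopens pyruvate dehydrogenase, had 0.48 ± 0.12 (adjusted p = 0.01941), and Pfkfb4 -0.29 ± 0.07 (adjusted p = 0.02208). Without vehicle PM library 2 these were 0.40 and -0.24 with adjusted p of 0.1092 and 0.1186, and without metformin PM library 3 they were 0.40 and -0.25 with adjusted p of 0.1007 and 0.09856. Pfkfb4 was also lost without metformin PM library 1 (-0.30, adjusted p = 0.07161). For the difference of the PM effects 0 of the 26 regulators were called by edgeR and DESeq2, beside 1.44% of all genes by edgeR. At an unadjusted p under 0.05 by edgeR, 3 were higher and 4 lower, beside 749 higher and 631 lower of all 11906 genes tested.

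The pentose phosphate pathway draws glucose 6-phosphate off glycolysis to make NADPH and ribose. Of its 10 genes 8 were tested, and 1 was called by edgeR in 1 comparison, metformin against vehicle with PM, beside 6.89% of all genes. This gene, H6pd, the enzyme of the endoplasmic reticulum, averaged 42.6 ± 1.82 CPM with metformin and PM and 57.5 ± 4.54 CPM with vehicle and PM (log2 fold change -0.43 ± 0.11, adjusted p = 0.01738). Without vehicle PM library 1 or 2, or metformin PM library 1, it was -0.42, -0.40 and -0.40 with adjusted p of 0.05857, 0.07871 and 0.07947. G6pdx, Tkt and Taldo1 had PM effects of -0.01, 0.03 and 0.00897 with metformin and 0.08, 0.15 and -0.04 with vehicle, and Pgd had -0.09 and 0.22.

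Targets of hypoxia-inducible factors outside glycolysis were compared because they share that regulator with several of the 10 genes. Of 20 listed 14 were tested, and 4 were called after PM with vehicle, 3 higher and 1 lower, beside 4.85% of all genes, and 1 with metformin, beside 12.8%. The iron and haem genes Tfrc (0.92 ± 0.12), Slc11a2 (0.42 ± 0.11) and Hmox1 (1.27 ± 0.22) were higher with vehicle and not called with metformin, where the values were -0.13, 0.22 and 0.19. Without vehicle PM library 2 the value for Hmox1 with vehicle was 0.74, and Slc11a2 lost its call (0.31, adjusted p = 0.2289, edgeR quasi-likelihood). Slc11a2 was also lost without vehicle PM library 3 or vehicle PBS library 2, 3 or 4 (0.37 to 0.44, adjusted p of 0.06848 to 0.0931) and under DESeq2 (adjusted p = 0.05345). The difference of the PM effects, metformin minus vehicle, was called for Tfrc (-1.05, adjusted p = 0.004578) and not for Hmox1 (-1.08, adjusted p = 0.1192) or Slc11a2 (-0.20, adjusted p = 0.6978). Ndrg1, a stress-induced gene of the list, was higher after PM with metformin (1.15 ± 0.22) and lower with vehicle (-0.92 ± 0.22); the call with vehicle was lost without vehicle PM library 2 (-0.65, adjusted p = 0.1052). Metformin against vehicle gave 1.18 ± 0.22 for Ndrg1 and -0.58 ± 0.12 for Tfrc with PM. With PBS it gave -0.89 ± 0.22 (adjusted p = 0.03095) and 0.47 ± 0.13 (adjusted p = 0.04928), calls that were lost in 4 and 10 of 13 fits that left out a library. For Ndrg1 these left out metformin PBS 3 or 4 or vehicle PBS 1 or 2 (-0.99 to -0.67, adjusted p of 0.05265 to 0.1779). For Tfrc they left out any library but metformin PBS 1, vehicle PM 2 and vehicle PBS 1 (0.38 to 0.49, adjusted p of 0.05479 to 0.1837), and library totals alone gave an adjusted p of 0.05199. Tfrc with PM was lost without vehicle PM library 2 (-0.46, adjusted p = 0.05457). The other hypoxia targets named by their level, Bnip3l at a mean of 252 CPM and Ero1l at 106 CPM, were not called after PM in either arm.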

How the data were processed

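The authors deposited 1 table of raw read counts per gene, per the file headers, for 13 libraries of polyadenylated RNA. By the submitters' processing notes the tools were bcl2fastq (2.19), TopHat2, HTSeq and edgeR with the mm10 build. Per the labels' protocols, NEBNext Ultra I libraries took 100 ng of RNA of integrity number above 7 and were read as 75 bp single ends. The annotation release, the strand setting and the treatment of reads with several matches are not given in the sources used here. The deposited coordinates and gene lengths (unit "other") served for positions only, because that length adds up the exons of all transcripts. Lengths came from GENCODE M21, the exon-union length having been added after the data were seen, and promoter sequences from RefSeq (GRCm38.p6), which matched 10 of 10 genes; 42462 gene IDs had a symbol.

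Counts were tested in R 4.3.3 with edgeR 4.0.16: filterByExpr with a minimum count of 10, TMM scaling, 1 coefficient per group over all 13 libraries (9 residual degrees of freedom, common biological coefficient of variation 0.0635) and the quasi-likelihood test with Benjamini-Hochberg adjustment. Log2 CPM used a prior count of 2. DESeq2 1.42.0 was an alternative, beside other scalings, no filter, a replicate block and fits that each omitted 1 library. The design text calls the samples biological replicates. No pair of libraries of a group agreed within sampling noise (the smallest chi-square per degree of freedom was 2.14). Shared stretches were found with BLAST 2.17.0, and the fits were tested on simulated data. The members, gene lists and tests were chosen with earlier results of these data known. Named genes were the 10 members, listed genes called in any comparison or above a mean of 100 CPM, and the 5 genes nearest to the mean profile of the members, predicted genes left out. Of those above 100 CPM not all are printed.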

Additional observations from a re-analysis of the deposited data

Results flagged for a closer look

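For the difference of the PM effects, metformin minus vehicle, 3 listed genes passed the edgeR quasi-likelihood test, and none is a glycolysis enzyme. Ndrg1 had 11.9, 11.7 and 8.71 CPM with metformin and PM and 5.65, 2.80 and 5.85 CPM with vehicle and PM, against 5.73, 5.57 and 3.39 CPM with metformin and PBS and 9.65, 8.62, 9.25 and 8.58 CPM with vehicle and PBS. Its PM effect was higher with metformin by 2.07 in log2 (adjusted p = 0.002343), and leaving out single libraries gave 1.80 to 2.22. Tfrc, the transferrin receptor gene, had 19.4, 22.04 and 21.3 CPM with metformin and PM and 28.7, 36.1 and 28.8 CPM with vehicle and PM, against 19.2, 25.8 and 23.4 CPM with metformin and PBS and 19.0, 15.5, 16.9 and 14.1 CPM with vehicle and PBS. Its difference was -1.05 (adjusted p = 0.004578). Apoe, an apolipoprotein gene of the monocyte-derived macrophage marker list, had 58.5, 39.4 and 51.5 CPM with metformin and PM and 59.2, 46.6 and 41.6 CPM with vehicle and PM, against 116, 117 and 87.9 CPM with metformin and PBS and 58.9, 51.2, 49.3 and 43.4 CPM with vehicle and PBS. Its difference was -1.06 (adjusted p = 0.00805). None of the 10 glycolysis and glucose entry genes had a library of vehicle with PBS that stood apart from the other 3 by Dixon's criterion, and nor did the other genes checked, 25 in all.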

How the results depend on the processing

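Among the 10 genes, the 3 calls after PM with vehicle held under DESeq2, the other scalings, the replicate block and all 13 fits that left out a library, and the fit with no filter on low counts called 4. With metformin 4 to 5 were called when single libraries were left out. Other scalings moved the median of all genes by at most 0.0183 in log2. Slc2a1 had only 120 to 282 counts per library, which limits its precision.

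With merged exon length the levels per kilobase were 366 for Aldoa, 165 for Gapdh, 154 for Ldha, 59.9 for Eno1, 72.4 for Pgam1, 36.4 for Pgk1, 6.40 for Pfkl, 9.65 for Hk2, 8.35 for Slc2a1 and 3.09 for Hk1. Without a filter, metformin with PBS called 404 genes higher and 409 lower, metformin with PM 545 lower, and the difference 277 higher and 230 lower, against 135, 230, 334, 106 and 65 with it. With library totals alone, the PM effects turned to -0.0141 for Gpi1 with vehicle and -0.0092 for Taldo1 with metformin.

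The replicate number did not pair the samples: of 16 same-numbered pairs 1 had a correlation of deviations over 0.1 (-0.102 to 0.116). With the replicate block, 82 genes were higher with metformin and PBS, and 321 higher and 214 lower with metformin and PM, against 135, 486 and 334; log2 values turned to 0.00875 for Pfkfb4 (PM with vehicle) and, for metformin with PM, to 0.0436 for Pgk1 and 0.00414 for Eno1. The block ended 7 calls with adjusted p of 0.05054 to 0.07928, those of Slc11a2 (PM with vehicle, 0.40), Arrdc4 and Mlxip (PM with metformin, -0.23 and 0.28), Tfrc (metformin with PBS, 0.51), and Pfkfb3, Pdp1 and H6pd (metformin with PM, 0.47, 0.48 and -0.43), and it called Aldoc (PM with vehicle, 0.38, adjusted p = 0.03036), Pdk4 (metformin with PBS, -0.66, adjusted p = 0.03157) and Hmox1 (metformin with PBS, 0.81, adjusted p = 0.01273).

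Leaving out single libraries, genes called higher and lower numbered 477 to 906 and 403 to 824 for PM with metformin, 209 to 337 and 150 to 308 for PM with vehicle, 241 to 535 and 170 to 428 for metformin with PM, 38 to 213 and 83 to 332 for metformin with PBS, and 69 to 170 and 40 to 118 for the difference. Values that changed sign in these fits were uncalled with all libraries. For PM with metformin they were Hk1 -0.0241 to 0.0661, Hk2 -0.109 to 0.0232, Aldoa -0.0422 to 0.0367, Gpi1 -0.0684 to 0.0466, Tpi1 -0.00415 to 0.0498, Tkt -0.00517 to 0.0467 and Taldo1 -0.0171 to 0.0288. For PM with vehicle they were Hk2 -0.0372 to 0.0859, Gpi1 -0.0468 to 0.0394, Bsg -0.00975 to 0.0582, Pfkfb4 -0.0671 to 0.0485, Arrdc4 -0.0699 to 0.0316, Taldo1 -0.102 to 0.0105, Bnip3l -0.0747 to 0.047 and Ero1l -0.00189 to 0.0726. For metformin with PM they were Hk1 -0.141 to 0.0488, Hk2 -0.0668 to 0.0493, Pfkl -0.253 to 0.0234, Aldoa -0.0777 to 0.0168, Pgk1 -0.0657 to 0.0618 and Pgam1 -0.166 to 0.029. For metformin with PBS they were Hk2 -0.00803 to 0.134, Pfkl -0.0356 to 0.0715, Aldoa -0.0178 to 0.0645, Pgam1 -0.0981 to 0.000287 and Eno1 -0.0249 to 0.0594, and for the difference Hk2 -0.141 to 0.000239, Pfkl -0.268 to 0.00907 and Pgam1 -0.113 to 0.0829. The cause of these shifts was not tested.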
